A study of Mus musculus with 16 samples.

Results

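The genes described here are 28 named genes whose RNA was counted almost only in one of 2 mouse strains, in rotator cuff muscle. The genes were chosen by their measured counts. A gene was taken when its lowest CPM (counts of the gene per 1000000 counts of the sample) over the 8 samples of one strain was at least 4 times its highest CPM over the 8 samples of the other. Predicted genes, Riken clones, the ribosomal protein, H2, zinc finger, solute carrier and alpha or beta globin families, Hal, Hspa8 and C1rb were left out by name. Of 11710 genes in the count table, 78 passed the limit (52 higher in MRL, 26 higher in BL6), and 28 of these stayed after the names were left out. Among the 28, 19 were higher in MRL and 9 in BL6.

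Muscle came from C57BL/6J mice (BL6) and MRL/MpJ mice (MRL), either unoperated or after the tendon was removed and the muscle denervated, with 4 samples in each of the 4 groups and 16 in all. Both strains are inbred. BL6 is the strain of the mouse reference genome, and MRL mice are known for closing holes punched in the ear. The study's title asks whether the strains respond differently to a rotator cuff tear. Age, sex, time after surgery and whether samples came from separate animals are not given in the sources used here, so p-values measure the spread between these samples only. Total counts ran from 24323862 to 43552964 per sample, and 3 counts corresponded to 0.0689 to 0.123 CPM, a floor that covers counting error only. All 11 skeletal muscle fibre markers looked for (among them Acta1, Ckm and Mb) were in the table. Replicate 4 of operated MRL stood apart from its group: the chi-square per degree of freedom between its counts and those of the other operated MRL samples was 233 to 301, against 44.3 to 64.3 among those others. Replicate 4 of operated BL6 differed from its group by 157 to 405 on that measure, against 45.2 to 140.3 among the others. Results that move without either sample are given both ways.

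Because the rule used the difference between strains, that difference is given as values with no test. The values just inside the limit were a lowest BL6 CPM of 5.36 against a highest MRL CPM of 1.31 for Unc5a (a ratio of 4.09), a ratio of 4.30 for Nudc-ps1, and a lowest BL6 CPM of 4.53 against a highest MRL CPM of 0.907 for Fbxo44. Just outside were Atp6v0c, with a ratio of 3.88 and higher in BL6, Pianp, with 3.12 and higher in MRL, and Hmgn2, with 3.04 and higher in BL6.

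A gene that is copied back into the genome from its own messenger RNA gives a processed pseudogene, a copy without introns that often lacks a promoter of its own. Such copies differ between inbred strains in their number, place and sequence. A short read from an expressed gene and one from its copy can be told apart only where a base differs between them. How reads with more than one match were counted, and whether strand was used, is not given in the sources used here.

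The 19 genes higher in MRL were largely of that kind. GENCODE annotates 12 of them as pseudogenes, 11 processed and 1 unprocessed (Tnxa), against 0 of the 9 genes higher in BL6 and 112 of all genes in the table (0.957%). When the transcript of each gene was aligned to the other transcripts, 14 of the 19 had a counterpart in the table that matched at least 90% of bases over at least 90% of the copy. None of the 9 genes higher in BL6 had one. With a quicker search run alike over all genes, 96 of 11708 (0.82%) had such a counterpart, against 13 of the 19 (68.42%), 0 of the 9, and 67 of the 112 pseudogenes (59.82%). The 14 counterparts are the protein-coding genes Vcp, Isca1, Hspb1, Rpsa, Sod2, Mrpl48, Amd1, Atp6v0c, Hmga1, Wsb2, Pcna, Nudc, Prdx2 and Bod1, and identity ran from 90.93% for AC087802.4 with Bod1 to 99.81% for Hmga1b with Hmga1.

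How little separates a copy from its counterpart is shown by 5 stretches of 120 bases, taken from GENCODE M21 transcripts (GRCm38) where each holds at least 1 difference. Both lines run 5′ to 3′ along the transcript, and capitals mark the bases that differ. Vcp-rs lies on the minus strand of the X chromosome, here at chrX:104346696-104346815, and matches coding bases 1420 to 1539 of Vcp on chromosome 4, with 3 differences here and 8 in 2403 aligned coding bases. The alignment of the whole copy, over 2421 bases, also held 15 gap bases.
Vcp-rs: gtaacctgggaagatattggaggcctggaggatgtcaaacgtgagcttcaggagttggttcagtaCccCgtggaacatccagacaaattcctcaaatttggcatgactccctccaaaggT
Vcp: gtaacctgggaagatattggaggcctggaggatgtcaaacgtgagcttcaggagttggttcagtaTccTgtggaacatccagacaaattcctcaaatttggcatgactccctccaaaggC
AK157302 lies on the plus strand at chr13:21495306-21495425 and matches coding bases 1 to 120 of Isca1 on the same chromosome, with 2 differences here and 2 in all 387 coding bases aligned. Outside the coding part there were more, with 20 mismatches over all 1914 aligned bases.
AK157302: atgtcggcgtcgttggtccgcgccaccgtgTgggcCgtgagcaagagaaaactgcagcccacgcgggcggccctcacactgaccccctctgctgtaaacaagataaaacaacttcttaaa
Isca1: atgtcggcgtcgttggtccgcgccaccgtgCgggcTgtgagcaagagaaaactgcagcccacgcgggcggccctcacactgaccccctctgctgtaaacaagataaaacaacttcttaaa
Hsp25-ps1 lies on the minus strand at chr13:45078519-45078638 and matches coding bases 490 to 609 of Hspb1 on chromosome 5, with 3 differences here and 4 in 627.
Hsp25-ps1: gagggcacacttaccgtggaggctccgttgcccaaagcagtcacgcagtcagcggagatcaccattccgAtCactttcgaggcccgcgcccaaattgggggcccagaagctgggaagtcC
Hspb1: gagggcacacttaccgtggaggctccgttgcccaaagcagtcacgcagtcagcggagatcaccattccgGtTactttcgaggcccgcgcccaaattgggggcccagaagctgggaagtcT
Atp6v0c-ps2 lies on the plus strand at chr6:37806086-37806205 and matches coding bases 1 to 120 of Atp6v0c on chromosome 17, with the 1 difference shown and no other in 465.
Atp6v0c-ps2: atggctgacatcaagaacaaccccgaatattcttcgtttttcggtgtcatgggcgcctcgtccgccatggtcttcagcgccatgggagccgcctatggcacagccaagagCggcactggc
Atp6v0c: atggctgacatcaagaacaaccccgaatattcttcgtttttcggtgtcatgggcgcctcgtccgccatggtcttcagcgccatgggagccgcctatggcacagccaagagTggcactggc
Pcna-ps2 lies on the plus strand at chr19:9283958-9284077 and matches coding bases 580 to 699 of Pcna on chromosome 2, with 3 differences here and 6 in 781.
Pcna-ps2: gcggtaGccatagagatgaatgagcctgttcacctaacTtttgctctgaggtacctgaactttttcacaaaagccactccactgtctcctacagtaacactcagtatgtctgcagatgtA
Pcna: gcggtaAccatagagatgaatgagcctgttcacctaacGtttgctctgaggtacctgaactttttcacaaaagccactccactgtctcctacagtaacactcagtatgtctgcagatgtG

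**Figure D1:**
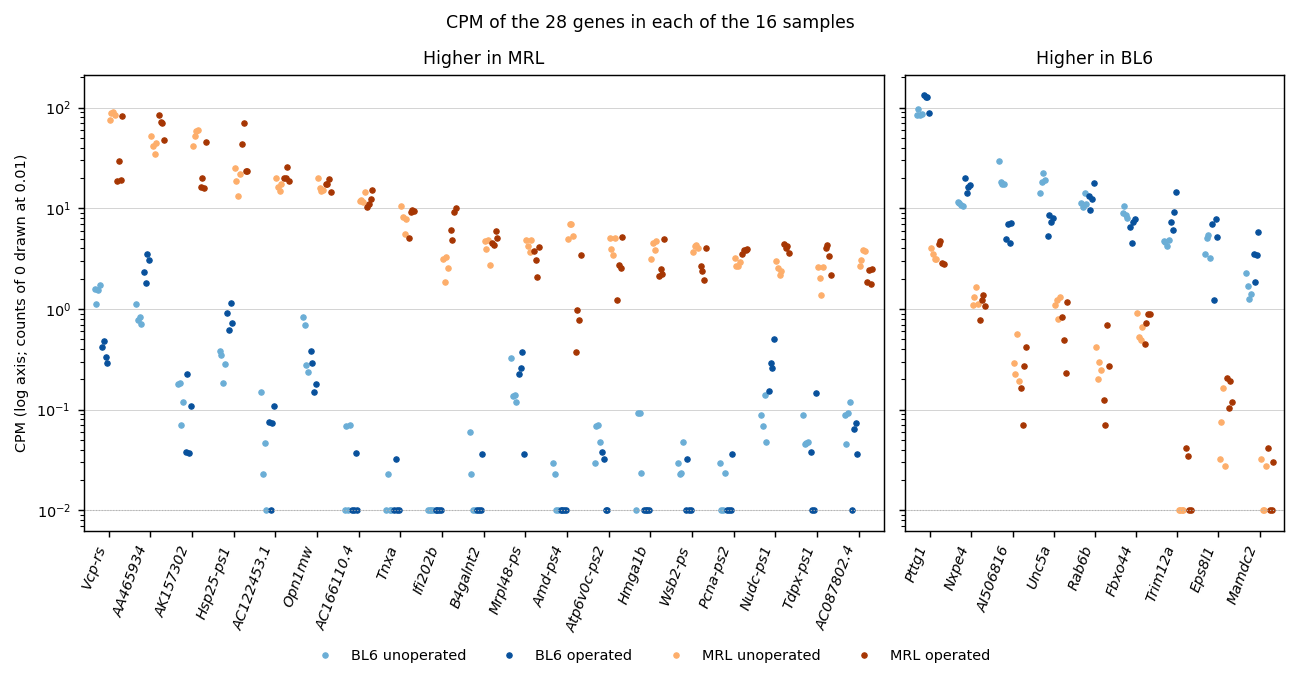
Each point is the CPM of one gene (horizontal axis) in one sample, on a log axis, with counts of 0 drawn at 0.01; colours give strain and surgery, 4 samples each. Means in the higher strain ran from 2.73 to 61.0 CPM in the 19 genes higher in MRL and from 2.66 to 103.7 CPM in the 9 genes higher in BL6.

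The 28 genes lay on 13 chromosomes, 5 of them on chromosome 11, and the closest pair on a chromosome was 9.87 Mb apart. In 10 genes no library of the other strain held more than 3 counts, 8 of them higher in MRL and 2 higher in BL6. In each of the 2 sets, 7 genes had counts in every library of the other strain.

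Vcp codes for valosin-containing protein, an ATPase that extracts and unfolds ubiquitin-marked proteins. Its copy Vcp-rs (ENSMUSG00000083327; chromosome X, 104345829 to 104348234) was the most highly counted gene of those higher in MRL. Unoperated MRL samples held 74.95, 88.2, 90.6 and 84.9 CPM and operated MRL samples 18.8, 29.3, 19.1 and 82.1 CPM. The 8 BL6 samples held 0.289 to 1.73 CPM. Vcp itself was at 112 to 152 CPM in BL6 and 25.4 to 47.4 CPM in MRL, so that no MRL sample reached the lowest BL6 sample. Vcp was lower in MRL, with a log2 difference (MRL minus BL6) of -1.75 (SE 0.15, adjusted p = 4.87e-07) among unoperated and -1.93 (SE 0.15, adjusted p = 1.87e-07) among operated samples in edgeR's quasi-likelihood test, adjusted by Benjamini-Hochberg over all genes, which is the test meant by edgeR below. With the counts of copy and counterpart summed into one row before the fit, the difference was -0.22 (adjusted p = 0.6097) and -0.86 (adjusted p = 0.0239) in the same test. Vcp-rs took 0.219 to 1.303% of the summed counts in BL6 and 41.02 to 68.01% in MRL.

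AK157302 (ENSMUSG00000078139; chromosome 13, 21495223 to 21497146), annotated as protein coding, is a copy of Isca1, a mitochondrial protein that helps to assemble iron-sulphur clusters. It held 41.9, 51.9, 58.3 and 59.4 CPM in unoperated MRL, 16.2, 20.2, 16.1 and 45.1 CPM in operated MRL and 0.0372 to 0.225 CPM over the BL6 samples. Isca1 was at 121, 116, 114 and 117 CPM in unoperated BL6 and at 26.3, 26.7, 27.1 and 32.1 CPM in unoperated MRL. The strains did not overlap, and Isca1 differed between MRL and BL6 by -2.21 (SE 0.18, adjusted p = 3.84e-07) among unoperated and by -1.06 (SE 0.18, adjusted p = 0.000774) among operated samples in edgeR's quasi-likelihood test. Summed, the pair differed by -0.68 (adjusted p = 0.0392) and -0.12 (adjusted p = 0.738) in that test. The share of AK157302 was 36.7 to 68.3% in MRL and at most 0.357% in BL6.

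Hsp25-ps1 (ENSMUSG00000078915; chromosome 13, 45078498 to 45079127) is a copy of Hspb1, a small heat shock protein that keeps damaged proteins from clumping. Unoperated MRL held 25.1, 18.9, 13.2 and 21.7 CPM, operated MRL 43.7, 71.1, 23.3 and 23.4 CPM and BL6 0.186 to 1.15 CPM. Its share of the pair was 55.8 to 59.7% over the 8 MRL samples. Hspb1 was 31.2 ± 12.3 CPM in unoperated BL6 and 14.8 ± 3.201 CPM in unoperated MRL (SD, n = 4), a log2 difference of -1.19 (adjusted p = 0.0409 by edgeR). That call was lost in 9 of the 16 fits that left out 1 sample, and among operated samples the difference was -0.92 (adjusted p = 0.0999). The summed pair differed by 0.01 and 0.33, with adjusted p of 0.991 and 0.589 by edgeR.

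The next 2 pairs were counted less, and most of their counts in MRL lay on the copy. Atp6v0c-ps2 (chromosome 6, 37806086 to 37806550) is a copy of the gene for the proton-carrying c subunit of the vacuolar ATPase. It held 1.23 to 5.13 CPM in MRL and 0 to 0.0696 CPM in BL6, while Atp6v0c went the other way, with 0.615 to 1.45 CPM in MRL and 5.63 to 9.74 CPM in BL6. Its log2 difference of -3.32 (adjusted p = 1.11e-07) among unoperated samples by edgeR became -0.95 (adjusted p = 0.0118) for the summed pair. Hmga1b (chromosome 11, 120762794 to 120764419) and Hmga1 code for high mobility group proteins that bend DNA in chromatin. Hmga1b took 84.04 to 98.3% of their counts in MRL and at most 1.55% in BL6. Hmga1 differed by -3.10 among unoperated samples (adjusted p = 1.15e-05, edgeR's quasi-likelihood test) and the sum by -0.38 (adjusted p = 0.342). Among operated samples Hmga1 differed by -3.96, which became -4.75 without replicate 4 of operated MRL, and the sum differed by -0.06.

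Pcna-ps2 (chromosome 19, 9283380 to 9284160) is a copy of the sliding clamp gene of DNA replication. It held 3.24, 2.65, 2.67 and 2.899 CPM in unoperated MRL, 3.54, 3.89, 3.84 and 3.97 CPM in operated MRL and at most 0.0362 CPM in BL6. Pcna was lower in MRL, with log2 differences of -0.41 (adjusted p = 0.0385) among unoperated and -0.56 (adjusted p = 0.00561) among operated samples by edgeR, and the unoperated call was lost in 9 of the 16 fits that left out 1 sample. Without TMM scaling, which evens out libraries by their bulk of genes, edgeR called neither (adjusted p = 0.349 and 0.0691), and the operated call was also lost when only the groups compared were fitted (adjusted p = 0.0749). The sums differed by 0.09 and 0.07 and were not called. Nudc-ps1 (chromosome 8, 29286431 to 29286981) is a copy of Nudc, a partner of the dynein motor. Nudc was lower in MRL too, with -0.60 (adjusted p = 0.000622) and -1.07 (adjusted p = 1.60e-06), and here the summed pair was still called lower, with -0.43 (adjusted p = 0.00337) and -0.78 (adjusted p = 1.30e-05) in that test.

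AC122453.1 (chromosome 17, 82409935 to 82410819) is a copy of Rpsa, a protein of the small ribosomal subunit. It matched Rpsa at 98.87%, and Rpsa-ps10 (98.64%) and Rpsa-ps2 (98.3%), which were not in the count table, nearly as well. The copy held 14.8 to 25.5 CPM in MRL and at most 0.148 CPM in BL6, whereas Rpsa in unoperated samples was 2.999 ± 0.216 CPM in BL6 and 2.94 ± 0.645 CPM in MRL (SD, n = 4), which differed by less than the spread between replicates. The summed pair was higher in MRL by 2.57 among unoperated and by 1.38 among operated samples, with adjusted p of 2.60e-09 and 2.45e-06 by edgeR. Rpsa alone was lower in operated MRL, with -0.78 (adjusted p = 0.008797), and was not called when edgeR was fitted to operated samples only (adjusted p = 0.0637).

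In the other 6 pairs the counterpart was far more abundant than the copy. The share on the copy in MRL was 5.36 to 13.2% for Mrpl48-ps (with Mrpl48, of the mitochondrial ribosome), 2.903 to 8.65% for Amd-ps4 (with Amd1, which makes the precursor of polyamines) and 3.21 to 5.13% for the noncoding AC166110.4 (with Sod2, the mitochondrial superoxide dismutase). It was 2.02 to 3.596% for AC087802.4, 1.98 to 3.49% for Wsb2-ps and 1.03 to 2.15% for Tdpx-ps1. AC166110.4 held 11.8, 12.04, 11.6 and 14.4 CPM in unoperated and 10.4, 11.002, 12.3 and 15.2 CPM in operated MRL, with 7 counts in all 8 BL6 libraries together. Besides Sod2 (98.46% identity), Rps6ka2 matched all of AC166110.4 at 97.88%. Rps6ka2 was at 26.4 to 139 CPM over the 16 samples, and its counts are not part of the share or the sum. Amd-ps4 also matched Amd-ps3 at 99.6% and Amd2 at 99.5%, as near as Amd1 at 99.5%, and neither was in the count table. Mrpl48-ps held 2.08 to 4.86 CPM in MRL and 0.0362 to 0.372 CPM in BL6. Of these 6 counterparts only Bod1 was called between strains, lower in operated MRL with -0.62 (adjusted p = 0.0201 by edgeR), and its sum with AC087802.4 was also called, at -0.59. Fitted to operated samples only, Bod1 was not called (adjusted p = 0.117 by edgeR). Amd1 among operated samples had 0.41 (adjusted p = 0.551), and without replicate 2 of operated BL6, at 29.0 CPM where the others held 8.62 to 10.01, it was called higher in MRL at 1.21 (adjusted p = 0.00549 by edgeR).

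**Figure D2:**
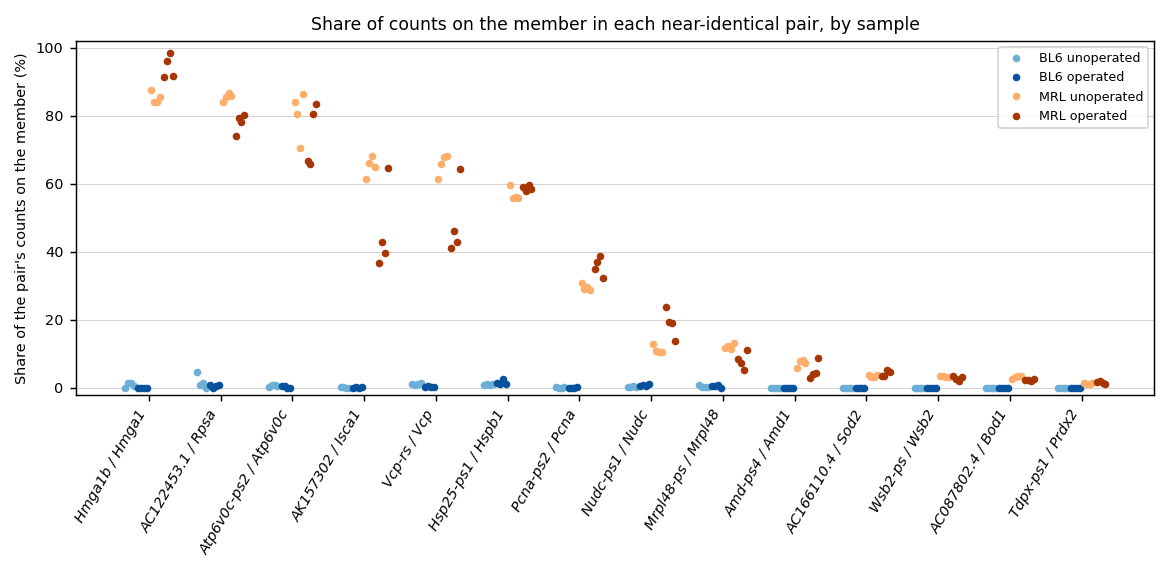
Each point is the share (%) of a pair's counts that fell on the copy in one sample, for the 14 pairs of copy and counterpart; colours give strain and surgery. BL6 samples lie at or under 4.72% in every pair, and MRL samples between 1.03 and 98.3%.

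The 14 counterparts were reached through copies chosen for high counts in MRL, so their calls are a description and no independent test. The rule also saw their own values: Atp6v0c missed it at a ratio of 3.88, and Atp6v0c, Hmga1 and Vcp pass it at a 2-fold limit. Of the 14, 7 were called between strains among unoperated samples and all 7 were lower in MRL. Over all genes 10.4% were called and 5.36% were called lower. Among operated samples 8 of 14 were called, all lower, against 12.9% of all genes called and 5.27% called lower. A total of 6 were called lower in both, against 2.78% of all genes. The median log2 difference of the counterparts was -0.45 and -0.70, and 11 of 14 were below 0 in each comparison, while the median of all genes was 0.01 among unoperated samples. With counts summed over each pair, 4 were called among unoperated (3 lower, 1 higher) and 5 among operated samples (4 lower, 1 higher), and the medians were -0.05 and -0.09. Counts of a copy and its counterpart are not independent where reads could fall on either, and the cause of the shift between them was not tested.

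**Figure D3:**
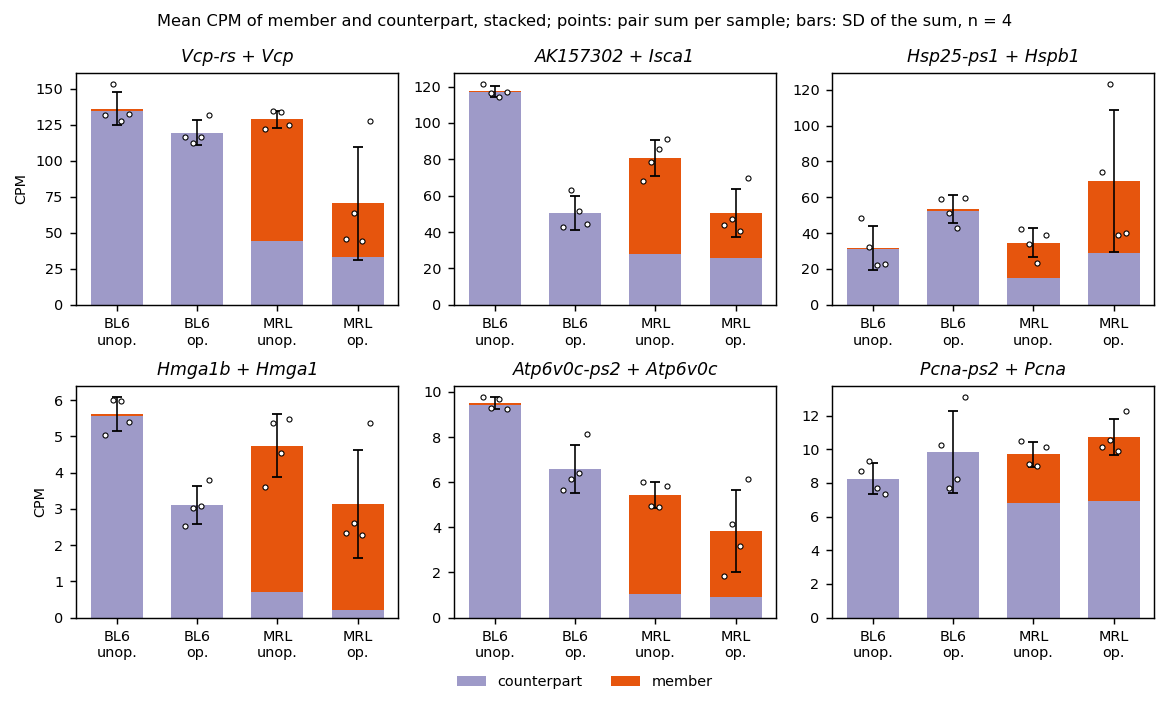
Stacked bars give the mean CPM of counterpart and member (copy) in each of the 4 groups for 6 pairs; points are the sum in each sample and error bars the SD of the sum (n = 4). In Vcp-rs with Vcp the unoperated MRL bar is mostly copy and the operated one holds similar parts of both, with replicate 4 far above the other samples; the summed mean of unoperated MRL is 129 CPM against 136 CPM in unoperated BL6, and that of operated MRL 70.3 against 119 CPM in operated BL6.

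The other 5 genes higher in MRL had no near-identical counterpart in the table. AA465934 (chromosome 11, 83291699 to 83294632), a noncoding transcript, held 52.2, 41.3, 34.7 and 44.9 CPM in unoperated MRL, 85.3, 71.6, 70.5 and 47.4 CPM in operated MRL and 0.709 to 3.49 CPM in BL6. Opn1mw (chromosome X, 74127464 to 74150760) codes for the green cone opsin, a light receptor of the retina, and held 20.05, 15.8, 15.01 and 15.3 CPM in unoperated and 17.5, 17.5, 19.5 and 14.5 CPM in operated MRL, against 0.149 to 0.831 CPM in BL6.

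Tnxa (chromosome 17, 34771395 to 34801623) is an unprocessed pseudogene of the matrix protein gene Tnxb, matching it at 97.61% of bases over 36.5% of its transcript. It held 10.5, 8.24, 5.58 and 7.82 CPM in unoperated and 5.02, 9.198, 9.65 and 9.42 CPM in operated MRL, and 2 counts in all BL6 libraries together. Tnxb did not move the other way: its log2 difference was 0.22 (adjusted p = 0.591) and 0.03 (adjusted p = 0.953) in edgeR's quasi-likelihood test. B4galnt2 (chromosome 11, 95865943 to 95914891), an enzyme that adds a terminal sugar to cell surface glycans, held 4.73, 3.905, 4.82 and 2.71 CPM in unoperated and 4.52, 4.304, 5.996 and 5.07 CPM in operated MRL, with 4 counts in all BL6 libraries.

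Ifi202b (ENSMUSG00000026535; chromosome 1, 173962568 to 173982744) was the one gene with 0 counts in all 8 libraries of the other strain. It belongs to the p200 family of interferon-inducible proteins, several of which bind DNA that has strayed outside the nucleus, and it is known to vary between inbred strains. The MRL samples held 1220 counts in all, which is at least 447-fold higher than BL6 against a floor of 3 counts over the group. Unoperated MRL held 3.14, 1.84, 3.27 and 2.54 CPM and operated MRL 6.04, 4.86, 9.11 and 9.96 CPM. Its closest transcript in the table was Ifi204, at 73.06% identity over 71.9% of its length. Ifi204 was higher in unoperated MRL (8.81 ± 1.32 against 4.01 ± 2.17 CPM, log2 difference 1.02, adjusted p = 0.0375 in edgeR's quasi-likelihood test), and Ifi203 in operated MRL (38.8 ± 13.8 against 16.02 ± 4.402 CPM, 1.25, adjusted p = 0.001903). Of the 5 tested p200 relatives these were the calls between strains, 1 in each comparison. In a list of genes known to vary in copy or allele between inbred strains, the 3 tested genes that are not among the 28 (Glo1, Alad and Wdfy1) were higher in MRL in both comparisons, with log2 differences of 1.09, 1.60 and 1.26 among unoperated samples, where 5.02% of all genes were called higher (7.6% among operated). That list was chosen with results known, and Glo1 and Alad also pass the rule at a 2-fold limit.

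Among the named genes kept by the rule, the 9 higher in BL6 had a different make-up: 8 were protein coding and 1 noncoding. Pttg1 (ENSMUSG00000020415; chromosome 11, 43420250 to 43426251) codes for securin, which holds back the separation of sister chromatids in mitosis. It held 85.01, 96.1, 85.1 and 87.5 CPM in unoperated BL6, 133, 127, 127 and 88.8 CPM in operated BL6 and 2.803 to 4.76 CPM in MRL, the highest levels of all 28 genes. Nxpe4 (chromosome 9, 48162023 to 48400025), a neurexophilin-like protein, held 11.5, 11.4, 10.8 and 10.7 CPM in unoperated and 19.8, 14.2, 16.1 and 16.8 CPM in operated BL6, against 0.781 to 1.65 CPM in MRL. The noncoding AI506816 (chromosome 5, 23698296 to 23712667) held 29.3, 18.3, 17.6 and 17.4 CPM in unoperated and 4.99, 6.95, 4.497 and 7.12 CPM in operated BL6, against 0.0694 to 0.561 CPM in MRL. Its unoperated and operated BL6 samples did not overlap.

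Unc5a (chromosome 13, 54949411 to 55006018) is a receptor for the axon guidance cue netrin. It held 14.3, 18.2, 22.6 and 19.3 CPM in unoperated and 5.36, 8.65, 7.28 and 8.06 CPM in operated BL6, and 0.231 to 1.31 CPM in MRL, the narrowest gap between strains. Rab6b (chromosome 9, 103111787 to 103185276), a small GTPase of traffic through the Golgi, held 11.4, 10.4, 14.3 and 11.2 CPM and 13.2, 9.58, 12.4 and 17.8 CPM in those groups, and 0.0694 to 0.692 CPM in MRL. Fbxo44 (chromosome 4, 148152800 to 148160482) chooses substrates for a ubiquitin ligase, and held 8.997, 10.5, 8.63 and 8.08 CPM and 6.46, 4.53, 7.28 and 7.77 CPM, against 0.452 to 0.907 CPM in MRL. For Rab6b the surgery groups overlapped, and for Fbxo44 every operated BL6 sample lay under every unoperated one.

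Trim12a (chromosome 7, 104299894 to 104315466) belongs to a cluster of antiviral tripartite motif genes. BL6 held 4.78, 4.59, 4.199 and 4.797 CPM unoperated and 7.25, 6.08, 9.22 and 14.5 CPM operated, while MRL held 2 counts in all 8 libraries together. Trim12c, its nearest relative with 95.97% identity over 63.16% of the transcript, was counted in both strains, at 5.001 ± 0.695 CPM in unoperated BL6 and 5.89 ± 1.33 CPM in unoperated MRL (SD, n = 4). It was called higher in operated MRL, by 0.61 (adjusted p = 0.04302 in edgeR's quasi-likelihood test). Eps8l1 (chromosome 7, 4460674 to 4480487), related to the actin regulator Eps8, held 3.53, 5.03, 5.45 and 3.21 CPM and 6.95, 1.22, 7.77 and 5.24 CPM in BL6, with replicate 2 of operated BL6 far under the others. MRL held 0.0273 to 0.206 CPM. Mamdc2 (chromosome 19, 23302609 to 23448442), a secreted matrix proteoglycan, held 2.29, 1.699, 1.25 and 1.39 CPM and 3.55, 1.87, 3.42 and 5.79 CPM in BL6 and 4 counts in all MRL libraries.

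Whether the strain difference reached beyond each gene was asked of its neighbours, the nearest 2 tested genes on each side, 112 genes in all. Among unoperated samples 14 of them (12.5%) were called between strains, 8 higher and 6 lower in MRL, against 10.4% of all genes (5.02% higher, 5.36% lower). Among operated samples 15 (13.4%) were called, 10 higher and 5 lower, against 12.9% (7.6% higher, 5.27% lower). Of the 112, 5 were called in both with one sign, against 5.18% of all genes. Trim34a, next to Trim12a in the same gene cluster, went the same way as its neighbour, with 1.73 ± 0.615 CPM in unoperated BL6 and 0.144 ± 0.143 CPM in unoperated MRL, a log2 difference of -3.61 (adjusted p = 9.70e-05 in edgeR's quasi-likelihood test). The other four differed the opposite way from the gene beside them, among them Asrgl1 beside Pcna-ps2 (-1.46), Dusp26 beside Nudc-ps1 (-2.38) and Rdh13 beside Eps8l1 (1.14, all among unoperated samples). These neighbours lay at a median distance of 126 kb, and up to 5727 kb away. Of the 51 within 100 kb, 5 (9.80%) were called among unoperated and 10 (19.6%) among operated samples.

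The rule did not compare operated with unoperated samples, but its lowest CPM was taken over both. A gene with a large change by surgery in its higher strain could miss the limit for that reason. The shares below are therefore not free of the choice of genes. The effect of surgery was tested in the strain where each gene was counted. Of the 19 genes higher in MRL, 7 were called for surgery in MRL, 4 that rose and 3 that fell (36.8%), against 45.0% of all genes (22.3% that rose, 22.7% that fell), and their median log2 fold change was -0.0044 where that of all genes was 0.0072. Of the 9 genes higher in BL6, 6 were called in BL6, 3 that rose and 3 that fell (66.7%), against 67.9% of all genes (35.1% that rose, 32.8% that fell), with a median of 0.13 where that of all genes was 0.04. Both shares called are near the background. In bulk muscle, fewer cells of a type and less RNA per cell cannot be told apart.

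Ifi202b rose most, from 2.698 ± 0.654 to 7.49 ± 2.43 CPM (SD, n = 4), with every operated MRL sample above every unoperated one. Its log2 fold change was 1.41 (SE 0.27, adjusted p = 0.00404 in edgeR's quasi-likelihood test). Other interferon-related genes rose in MRL too: 3 of 5 tested p200 relatives, 12 of 13 interferon-stimulated genes and 6 of 11 guanylate-binding or immunity-related GTPases, with none of these lists holding a gene that fell, where 22.3% of all genes rose in MRL. In BL6, where Ifi202b was not counted, 4 of 5, 10 of 13 and 2 of 11 rose, and 3 of the GTPases fell, where 35.1% of all genes rose and 32.8% fell. The summed CPM of 12 macrophage markers was 111 to 517 in unoperated and 198 to 440 in operated MRL, and 46.9 to 194 in unoperated and 112 to 1100 in operated BL6. One of the 12 markers was called higher after surgery in MRL and 10 in BL6, and no T or B cell marker of the lists used was in the table. Single samples stood out among these markers. Adgre1 was at 51.4 CPM in replicate 1 of unoperated MRL (others 1.36 to 2.05) and 24.3 CPM in replicate 4 of operated BL6 (others 1.96 to 4.68). Cd68 in those samples was at 11.4 CPM (others 3.45 to 5.85) and 27.8 CPM (others 3.34 to 5.95). The calls among list genes were not recounted without these samples. Markers of some other cell types rose in MRL as well, 6 of 6 for endothelium, 6 of 6 for adipocytes and 5 of 6 for Schwann cells, and 5, 6 and 6 of them rose in BL6. Their summed CPM in MRL was 210 to 315 in unoperated and 347 to 755 in operated samples for endothelium, 278 to 420 and 1518 to 2032 for adipocytes, and 69.9 to 134 and 141 to 368 for Schwann cells. Other lists did not rise as a whole in MRL, where 22.7% of all genes fell. Of 5 fibroblast or mesenchymal progenitor markers 0 were called, and of 4 satellite cell markers 1 rose and 2 fell. Of 11 muscle fibre markers 0 rose and 3 fell, and the 1 erythrocyte marker found was not called. The 2 brown adipocyte markers found both rose. The part of any of these cells in the rise was not tested.

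Hsp25-ps1 rose from 19.7 ± 5.05 to 40.3 ± 22.6 CPM, by 1.02 (adjusted p = 0.0201 by edgeR). Without replicate 2 of operated MRL this was 0.56 (adjusted p = 0.106), and without replicate 3 of unoperated MRL 0.86 (adjusted p = 0.0633). With only the groups compared in the fit the adjusted p was 0.0569 by edgeR. Its counterpart Hspb1 had 0.93 (adjusted p = 0.0423 by edgeR) in MRL. Replicate 2 of operated MRL was again the highest, with 51.9 CPM of Hspb1 (others 15.8 to 30.3). The Hspb1 value without that sample was not taken. AA465934 rose by 0.63 (adjusted p = 0.0126), a call that missed the threshold without replicate 1 of operated MRL (0.49, adjusted p = 0.0502, edgeR). Nudc-ps1 rose by 0.64 (adjusted p = 0.0438), lost in 9 of 16 fits that left out 1 sample, without TMM scaling (adjusted p = 0.0680) and with a replicate block (adjusted p = 0.0673), while Nudc had -0.24 (adjusted p = 0.05901, edgeR).

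The 3 genes that fell in MRL were all copies. Amd-ps4 (chromosome 4, 51253025 to 51254027) went from 4.99, 7.05, 6.99 and 5.28 to 0.37001, 0.972, 0.769 and 3.3998 CPM, a log2 fold change of -2.21 (SE 0.51, adjusted p = 0.005501 in edgeR's quasi-likelihood test), and its counterpart Amd1 fell alongside by 1.88 (adjusted p = 0.003101). Vcp-rs fell by 1.27 (adjusted p = 0.00919) where Vcp fell by 0.47 (adjusted p = 0.0165). AK157302 fell by 1.19 (adjusted p = 0.00453), while Isca1 had -0.16 in MRL (adjusted p = 0.471) and fell by 1.30 in BL6 (adjusted p = 3.41e-05), all in edgeR's quasi-likelihood test. In each of the 3 copies replicate 4 of operated MRL was the highest of its group, and without it the values were -3.11, -1.93 and -1.61. For Vcp-rs that sample, at 82.1 CPM, lay among the unoperated samples. The share of Vcp-rs among its pair's counts was 61.3 to 68.01% in unoperated MRL, and 41.0 to 46.1% in operated MRL apart from replicate 4 at 64.4%. For AK157302 it was 61.5 to 68.3% unoperated, and 36.7 to 43.0% operated apart from 64.7% in that same sample.

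In BL6, Mamdc2 rose from 1.66 ± 0.458 to 3.66 ± 1.61 CPM (log2 fold change 0.97, adjusted p = 0.0134 in edgeR's quasi-likelihood test) and Trim12a from 4.59 ± 0.278 to 9.26 ± 3.72 CPM (0.83, adjusted p = 0.00673). Nxpe4 rose by 0.48 (adjusted p = 0.0177), and without replicate 1 of operated BL6 this was 0.35 (adjusted p = 0.0800 by edgeR). The largest fall was in AI506816, which fell by 1.91 (SE 0.28, adjusted p = 6.07e-05), Unc5a fell by 1.46 (SE 0.29, adjusted p = 0.000527), and Fbxo44 fell by 0.62 (adjusted p = 0.006902, edgeR's quasi-likelihood test). Pttg1 was not called, with 0.35 (adjusted p = 0.166), but without replicate 4 of operated BL6 it was 0.53 (adjusted p = 0.0137 by edgeR). Without TMM scaling Fbxo44 was not called (adjusted p = 0.0852) and Pttg1 was (adjusted p = 0.0313, edgeR). Rab6b (0.01) and Eps8l1 (0.13) were not called.

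**Figure D4:**
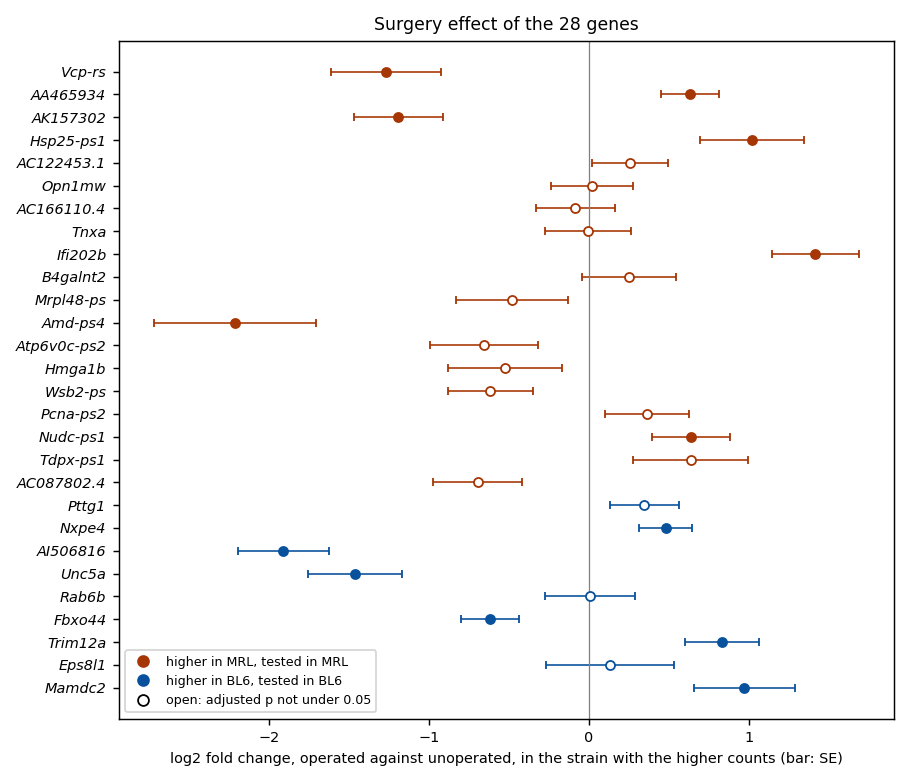
Points give the log2 fold change of operated against unoperated samples in the strain with the higher counts (4 against 4 samples), bars the SE, and filled points an adjusted p under 0.05 by edgeR. Ifi202b at 1.41 and Amd-ps4 at -2.21 are the extremes.

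The interaction of strain and surgery, which asks whether the response differs between strains, was called in 0 of the 28 genes by edgeR, against 0.248% of all genes, and DESeq2 also called 0. At an unadjusted p under 0.05 there were 4 among the genes higher in MRL and 3 among those higher in BL6. The share of all genes under that limit was not taken, so these counts show neither an excess nor a lack. In the strain with few counts the effect is poorly measured, and for Ifi202b, at 0 in BL6, it could not be estimated.

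The authors' deposited table called 9 of the 19 genes for surgery in MRL (4 higher, 5 lower), 7 of them shared with the calls above. For the 9 genes higher in BL6 the authors' deposited table called 6 for surgery in BL6, and all 6 were shared. No share called over all genes was taken from that table, so its counts show neither an excess nor a lack of calls.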

How the data were processed

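Messenger RNA of rotator cuff muscle was sequenced in 16 samples; it is called the infraspinatus in the design text and the supraspinatus in the labels. The deposited count table holds whole-number read counts per gene that the authors did not normalize. FastQC, STAR, edgeR and the mm10 build are listed per the submitters' processing notes, without versions, and the counting program and strand use are not given in the sources used here. The authors' deposited table of comparisons gives log2 fold changes per the file headers. Its p-values and false discovery rates were also made by the authors, and only its surgery calls are quoted.

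From the counts, CPM was computed on the column sums, and edgeR 4.0.16 (R 4.3.3) fitted 1 quasi-likelihood model, TMM-scaled and with a mean for each group, to all 16 samples. filterByExpr at a minimum count of 10 kept 11709 genes and removed 1. P-values were adjusted by Benjamini-Hochberg over those genes with a threshold of 0.05 for a call. The method was tested on simulated data. DESeq2 1.42.0 served as an alternative. Transcripts were matched with blastn to GENCODE M21, GRCm38, which holds 11708 of the 11710 gene IDs, 11690 of them with an equal symbol; the search for near-identical pairs replaced one by protein and was chosen after values had been seen, as were the summed pairs and the counterparts' tests. Total counts are in the results.

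Members and lists were chosen with earlier results of these data known. The genes named are the 12 with the highest mean CPM in each direction, the largest rises and falls with surgery (up to 6 each), 3 genes on each side of the limit, neighbours called in both strain comparisons, relatives, and genes of the lists discussed; the copies counted less were added after their values were seen. Some genes that overlap or neighbour these are not reported here. Without stated use of strand, reads over overlapping genes cannot be told apart. No pair of replicates agreed within sampling noise.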

Additional observations from a re-analysis of the deposited data

Results flagged for a closer look

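Among 112 groups of 4 samples tested over the 28 genes and 14 counterparts, 12 held a sample set off from the other 3 by more than Dixon's 95% limit; chance alone gives about 1 in 20. Replicate 4 of operated MRL was high for Vcp-rs (82.1 CPM, others 18.8 to 29.3), AK157302 (45.1 CPM, others 16.1 to 20.2) and Hmga1b (4.92 CPM, others 2.14 to 2.50). Replicate 1 of operated MRL was low for Tnxa (5.02 CPM, others 9.20 to 9.65). In unoperated MRL, replicate 1 was high for Opn1mw (20.05 CPM, others 15.01 to 15.8), and replicate 4 was high for AC166110.4 (14.4 CPM, others 11.6 to 12.04) and Isca1 (32.1 CPM, others 26.3 to 27.1). In unoperated BL6, replicate 1 was high for AI506816 (29.3 CPM, others 17.4 to 18.3) and Mrpl48 (36.2 CPM, others 34.4 to 34.5) and low for Bod1 (114 CPM, others 133 to 136). In operated BL6, replicate 4 was low for Pttg1 (88.8 CPM, others 127 to 133) and replicate 2 was high for Amd1 (29.0 CPM, others 8.62 to 10.01). What set these samples apart was not tested.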

How the results depend on the processing

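At a 2-fold limit the rule took 53 genes, at 8-fold 22, with TMM-scaled CPM 29, and 28 to 31 when 1 sample was left out. The 28 genes were among them in each case but the 8-fold limit. With 1 sample left out, surgery calls numbered 5 to 9 among the genes higher in MRL and 5 to 7 among those higher in BL6. Neighbours called between strains numbered 24 (unoperated) and 7 (operated) when only the groups compared were fitted, 8 among the nearest 1 on each side (unoperated), and 6 to 17 and 9 to 17 when 1 sample was left out. Counterparts called were 10 (unoperated, Prdx2 among them higher in MRL at 0.30) and 5 (operated) with only the groups compared, 4 and 5 with counts summed, 9 and 9 with DESeq2, 5 and 7 without TMM, and 5 to 8 and 8 to 10 when 1 sample was left out. The share of all genes called was not taken for any alternative fit. These counts therefore have no background of their own and show no excess or loss. Summing turned Rpsa to 2.57 and 1.38, Hspb1 to 0.0103 and 0.33, Pcna to 0.0922 and 0.0744 and unoperated Sod2 to 0.0490. Without TMM, Sod2 was 0.14 and Tnxa (surgery) 0.0502; with only the groups compared, Rab6b was -0.0185. With 1 sample left out, surgery values ran from -0.0288 to 0.12 for Opn1mw, -0.14 to 0.16 for Tnxa, -0.0693 to 0.14 for Rab6b and -0.11 to 0.44 for Eps8l1, and Sod2 from -0.0533 to 0.0514. None of these reversed values was called except those of Rpsa. Calls gained were Wsb2-ps and AC087802.4 (surgery) and unoperated Bod1 and Prdx2 with DESeq2 and with only the groups compared, unoperated Mrpl48 with the latter, and operated Hspb1 with DESeq2. For surgery in MRL, Wsb2-ps was called in 5 of the alternative fits in all and AC087802.4 in 6. Atp6v0c-ps2 was called in 1 fit that left out a sample, at -1.03 (adjusted p = 0.0176 by edgeR). The cause was not tested where no construction shows it.

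The replicate numbers in the titles are no stated pairing: same-numbered samples correlated at -0.141 and 0.0920 across surgery in BL6 and MRL and at 0.160 and 0.165 across strains, and not every pair passed 0.1. With the number as a replicate block, calls for surgery were 6 in both sets of genes, interaction calls 0, neighbour calls 10 and 12 and counterpart calls 7 and 9, operated Hspb1 was called (-1.03), and Eps8l1 was -0.0066.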
